A study of Saccharomyces cerevisiae with 4 samples.

Results

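The response of budding yeast to nitrogen starvation was set side by side in cells with and without PHO23. Gene by gene, it was asked where the response was weaker, stronger or reversed in the deletion strain. Total RNA of the haploid laboratory strain SEY6210 was sequenced in 4 groups of 1 library each. All 4 share the SEY6210 background, MATα and GAL with mutant alleles of LEU2, URA3, HIS3, TRP1, SUC2 and LYS2. Growing wild type and the growing deletion strain (pho23Δ::HIS5, strain JMY047) were in YPD, a rich medium, at mid-log phase, and starved wild type and the starved deletion strain had spent 2 h in SD-N, a medium without nitrogen. The deletion strain also carries the HIS5 marker, and loss of PHO23 cannot be told apart from it. SD-N differs from YPD in more than nitrogen, and these differences cannot be told apart either. The deposited table gives 6678 open reading frames as RPKM, reads scaled by gene length and library size, and 6034 of them reached an RPKM of 10 in at least 1 library. For these 6034 genes, the starvation fold of each strain was log2((starved RPKM + 1)/(growing RPKM + 1)), and the difference is the fold of the deletion minus that of wild type. A positive difference means that a gene rose more, or fell less, in the deletion. Genes 2-fold or more apart (a difference of 1 or more, or of -1 or less) were counted, and "rose" and "fell" below stand for at least 2-fold between the 2 libraries named. With no replicate in any group there is no test, and the spread between cultures was not measured. Values given 4 in a row are RPKM in growing wild type, the growing deletion, starved wild type and the starved deletion, in that order.

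Pho23 is a subunit of the Rpd3L complex, a histone deacetylase that is brought to promoters by DNA-binding proteins such as Ume6 and acts mostly in repression. When nitrogen runs out, the TORC1 kinase is switched off: genes for ribosomes are shut down, while genes for stress protection, autophagy and the use of poor nitrogen sources are switched on. Autophagy carries cytoplasm to the vacuole for breakdown, and the title of the study links Pho23 with how often autophagosomes form. The same difference can arise in the growing or in the starved cells, since a starvation response shrinks when the starting level is already shifted as well as when the final level falls short. The difference is exactly the genotype fold (deletion over wild type) in starved cells minus that in growing cells, and the starved part of it was taken as its share. A gene was called set by the starved value at a share of at least 66.7%, set by the growing value at 33.3% or less, and set by both in between.

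PHO23 itself read 12.3, 0.1300000, 23.4 and 0.0546 RPKM, so that both deletion libraries matched their labels. Estimated depth was 1.96e+07 to 2.75e+07 reads per library, and summed RPKM ran from 883544 in starved wild type to 1101484 in growing wild type. The 4 α-specific marker genes (MF(ALPHA)1, MF(ALPHA)2, STE3, SAG1) summed to 8081, 2148, 19169 and 2980 RPKM, the 7 a-specific ones to 58.1, 17.1, 2883 and 647 RPKM, and the 6 haploid-specific ones to 649.98, 440.01, 1177 and 581 RPKM. None of these 17 genes was at 0 in any library, and a-specific transcripts, which an α strain keeps repressed, were present after starvation in both strains. The part of cells of another mating type or state in the results was not tested. In bulk RNA, fewer cells that express a gene and less of its RNA per cell cannot be told apart.

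The starvation response was smaller in the deletion strain far more often than it was larger. With 1 library per group, a difference between single cultures cannot be told apart from one between the strains. The difference was 1 or more in 318 genes (5.27% of 6034) and -1 or less in 329 (5.45%), while 5387 genes were under 2-fold apart. Of the 647 counted genes, 562 (86.9%) responded at least 2-fold in wild type and less in the deletion: 294 of them still moved 2-fold the same way in the deletion, and 268 stayed under 2-fold there. The response was larger in 29 genes, passed 2-fold only in the deletion in 32, and was under 2-fold in both strains but in opposite directions in 23. A single open reading frame, YMR242W-A, rose in one strain and fell in the other. Over all 6034 genes the median starvation fold was 0.53 for wild type and 0.35 for the deletion (log2), with standard deviations of 1.44 and 1.16 across genes. The upper quartile was 1.26 for wild type, past 2-fold, and 0.91 for the deletion, short of it. The lower quartiles were -0.26 and -0.29. Fewer 2-fold rises in the deletion were thus a pattern of all genes. The 2 starvation folds share no library. Their correlation across these genes, which are not independent replicates, was 0.913 (Pearson) and 0.925 (Spearman). The order of the genes was thus much alike in both strains, and the spread was narrower in the deletion.

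**Figure D1:**
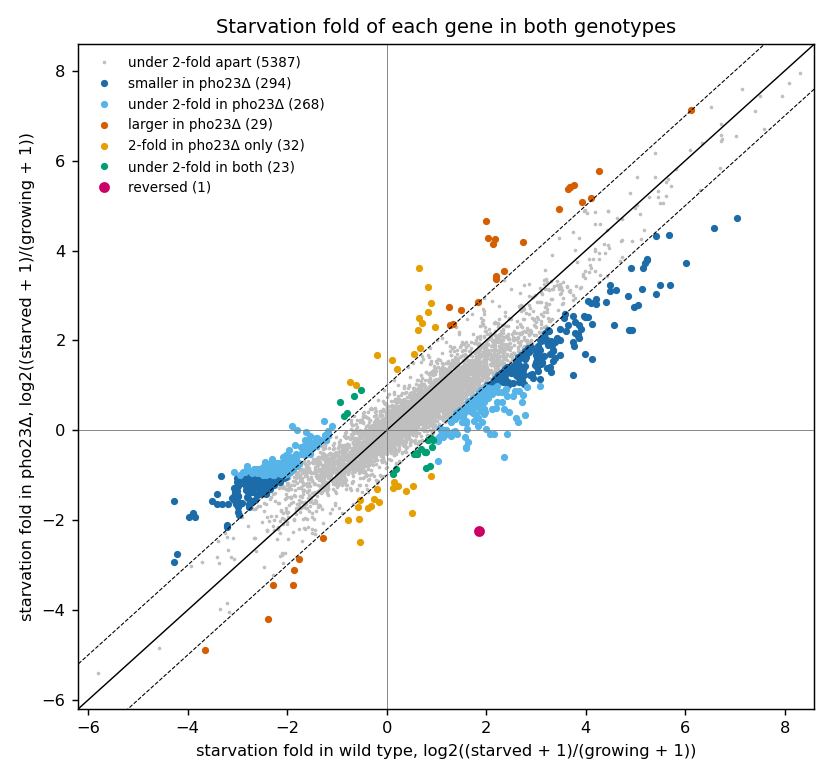
Starvation fold in wild type (horizontal) and in the pho23 deletion (vertical), log2, for 6034 genes. Points are single genes, coloured by kind of change; the solid line marks equal folds and the dashed lines a 2-fold difference. Most counted genes lie between the solid line and the horizontal zero line, 276 on the side of falls and 286 on the side of rises, and YMR242W-A lies alone at lower right.

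Falls and rises were both narrower. To avoid choosing genes by one strain alone, they were also ranked by the mean of both starvation folds. Of 700 genes whose mean fell at least 2-fold, 81.7% had a positive difference, with a median of 0.67. Of 1686 genes whose mean rose at least 2-fold, 82.4% had a negative difference, with a median of -0.41. A narrower spread in the deletion by itself tends to give these signs. Ranking by the mean thus describes that spread again and is no separate support. Without the cytosolic ribosomal protein genes, an alternative added after the data were seen, 565 genes fell by this mean and 77.3% of them had a positive difference. How the counts split between the 2 directions depends on how the libraries are scaled against each other. As deposited, 49.1% of the counted genes were positive, with a median of all genes at -0.15. Median-of-ratios scaling moved that median to 0.04 and gave 418 positive against 212 negative genes (66.3% positive), and scaling to equal sums moved it to -0.29 and gave 259 against 488 (34.7%). The share of weakened responses among counted genes was 84.6% to 87.6% under these scalings, upper-quartile scaling and pseudocounts of 0.1 and 5.

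Weakened falls were nearly all set by the starved value, and weakened rises more often by the growing value than by the starved one. Of 276 genes whose fall was weakened, 266 (96.4%) were set by the starved value, 8 by both and 2 by the growing value. Their median log2 genotype fold was -0.10 before and 1.33 after starvation, so that both strains began alike and the deletion kept more transcript after starvation. Of 286 genes whose rise was weakened, 160 (55.9%) were set by the growing value, 76 (26.6%) by the starved value and 50 (17.5%) by both. The 160 set by the growing value had median levels of 12.5, 36.0, 77.6 and 80.5 RPKM. The rule that picks these 160 itself requires a higher level in the growing deletion and a smaller gap between the starved libraries. The 76 set by the starved value had medians of 9.49, 5.03, 59.6 and 16.5 RPKM, with the deletion short of wild type after starvation, as the rule requires. Under scaling to equal sums the weakened rises numbered 433, and under median-of-ratios scaling 178; the growing value set 43.4% and 57.3% of them, against 42.9% with a pseudocount of 5. The starved value set 91.4% to 97.3% of the weakened falls under the same alternatives.

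**Figure D2:**
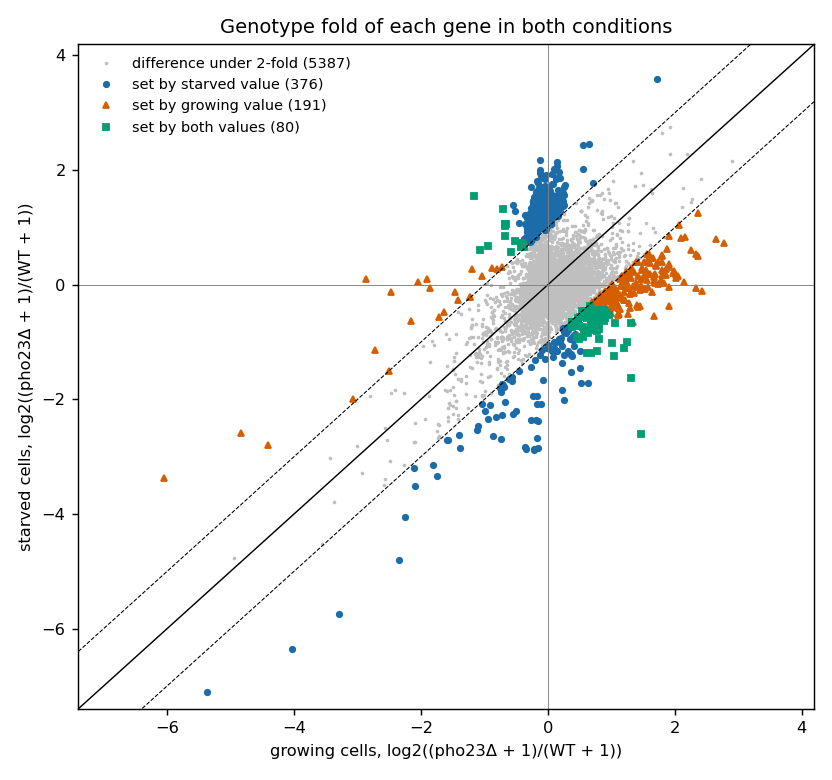
Genotype fold (pho23 deletion over wild type, log2) in growing cells (horizontal) and in starved cells (vertical), for 6034 genes. Points are single genes, and colours and shapes mark which value sets a difference of at least 2-fold; dashed lines mark that limit. Circles gather above zero at the middle, where 280 genes are higher in the starved deletion with little change before, and triangles to the right, where 168 genes have a negative difference because the growing deletion started higher.

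Genes for the cytosolic ribosome made up the largest share of the weakened falls. Of 137 ribosomal protein genes, 133 had a difference of 1 or more, against 5.27% of all genes, and none was negative. All 133 were set by the starved value, 75 of them with a smaller fall and 58 with a fall under 2-fold. The median member read 3069 and 2901 RPKM in the growing libraries, 516 in wild type after starvation and 1374 in the deletion. All 137 fell at least 2-fold in wild type and 77 did so in the deletion, and none differed 2-fold between the growing libraries. The range of the difference was 0.72 to 2.30, with a median of 1.49 beside -0.15 for all genes, and the 4 genes under 2-fold apart were RPL4A, RPL4B, RPS27A and RPS30A.

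RPS26B (chrV:423952-424311, plus strand, R64), which encodes a small-subunit protein, led the list at 1602, 1472, 159 and 724 RPKM. Its difference was 2.30, with a 95% interval of 2.20 to 2.40 from the rough read estimate, which covers counting error only. RPS3 (chrXIV:302680-303402, plus strand), a small-subunit protein at the mRNA entry channel, read 5196, 4751, 621 and 2489 RPKM. Wild type lost most of its RPS3 transcript on starvation (-3.06 in log2), while the deletion stayed just under a 2-fold fall (-0.93). The large-subunit genes RPL9A and RPL5 read 3069, 2821, 204 and 788 RPKM and 3447, 3196, 493 and 1831 RPKM. RPS9B, another small-subunit gene, read 3646, 3222, 344 and 1204 RPKM. In each of these genes the growing libraries were close and starved wild type was the lowest of the 4. Many ribosomal proteins are encoded by pairs of near-identical genes, between which the authors' counting could split reads, so that values of single paralogues are uncertain. The 74 mitochondrial ribosomal protein genes, which serve the separate ribosome of that organelle, had median starvation folds of -1.31 for wild type and -1.23 for the deletion strain. Over all genes the lower quartiles of these folds were -0.26 for wild type and -0.29 for the deletion. Of the 74, 47 fell in wild type and 49 in the deletion, and none was counted. MRP13, the highest of them, missed the limit at 0.99.

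Ribosome assembly and the polymerases that make ribosomal and transfer RNA showed the same pattern with smaller differences. Of 71 ribosome biogenesis genes, 34 were counted (47.9%), all positive, against 5.27% of all genes, and 32 of the 34 were set by the starved value. Their median levels were 139, 131, 36.5 and 69.6 RPKM, and the median difference was 0.98. The count was 21 under scaling to equal sums and 48 under median-of-ratios scaling, with the median at 0.84 and 1.17. HAS1 (chrXIII:850074-851591, minus strand), an RNA helicase needed for both subunits, read 249, 223, 33.5 and 117 RPKM, a difference of 1.94 (1.83 to 2.04, counting error only). NOP13, a nucleolar RNA-binding protein, read 127, 115, 19.1 and 63.5 RPKM. UTP21, a part of the complex that processes the small-subunit RNA, read 73.8, 61.98, 12.1 and 31.1 RPKM, and ARX1, an export factor of the large subunit, 235, 209, 28.6 and 75.5 RPKM. In all 4, starved wild type was lowest and the starved deletion lay between it and the growing libraries. Of 21 RNA polymerase I and III subunit genes, 5 were counted (23.8%), all positive, with a median of 0.64 over the list. RPA190, the largest subunit of polymerase I, read 74.9, 52.1, 14.6 and 25.6 RPKM, and RPA49, another of its subunits, 369, 356, 63.5 and 149 RPKM. Of 26 translation factor genes 2 were counted (7.69%), a share near the 5.27% of all genes: TIF11 (1.03), which encodes the initiation factor eIF1A, and STM1 (1.16), which encodes a ribosome-associated protein. Together the ribosomal protein, biogenesis and polymerase lists held 172 (54.1%) of the 318 positive genes.

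Many promoters of positive genes that were set by the starved value, outside the ribosomal protein list, held PAC (GATGAG) or RRPE (AAAATTTT). These 2 short sequences are known from genes of ribosome biogenesis. They were looked for on both strands in a window from 250 bases before to 50 after each coding start of the RefSeq R64 genome. The HAS1 window (chrXIII:851542-851841, minus strand) is shown because it holds both; capitals mark RRPE, beginning 166 bases before the start codon, and a pair of overlapping PAC matches at 106 and 101 bases before it.
HAS1: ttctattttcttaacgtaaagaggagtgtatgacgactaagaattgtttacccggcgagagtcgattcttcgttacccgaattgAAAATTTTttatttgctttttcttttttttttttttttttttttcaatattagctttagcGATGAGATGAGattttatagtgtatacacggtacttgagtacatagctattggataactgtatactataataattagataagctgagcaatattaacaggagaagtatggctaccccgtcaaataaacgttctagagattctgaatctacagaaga
PAC was found in 88 of 117 promoters (75.2%) of positive genes that were set by the starved value and are not ribosomal protein genes, against 20.3% of all 5961 promoters and 10.9% of those of ribosomal protein genes. RRPE was found in 72 of the 117 (61.5%), against 9.03% of all and 6.57% of ribosomal protein promoters. Both motifs were present in 53.8% of the 117 and in 4.41% of all promoters. A match is a description of the sequence only. The letters searched for Rap1 (ACCCNTACA), a factor of ribosomal protein genes, matched 5 of 137 ribosomal protein promoters (3.65%) against 0.721% of all in this window.

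Several positive genes had roles outside the ribosome. PTR2 (chrXI:615730-617535, plus strand), a carrier of small peptides, had the second-highest difference of all (2.72) at 62.3, 27.1, 2.24 and 8.46 RPKM, and was set by both values since the deletion also started lower. EFM4, a methyltransferase of a translation elongation factor, read 128, 142, 33.5 and 151 RPKM: it fell in wild type and ended in the deletion near its growing level. URA7, CTP synthase, read 273, 246, 30.9 and 85.6 RPKM. YOL014W and YBR191W-A, of unknown function, read 73.7, 44.6, 3.78 and 10.99 RPKM and 203, 189.9, 25.2 and 95.5 RPKM. YBR191W-A has no RefSeq record in the table used, and its overlap with neighbouring genes was not examined.

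**Figure D3:**
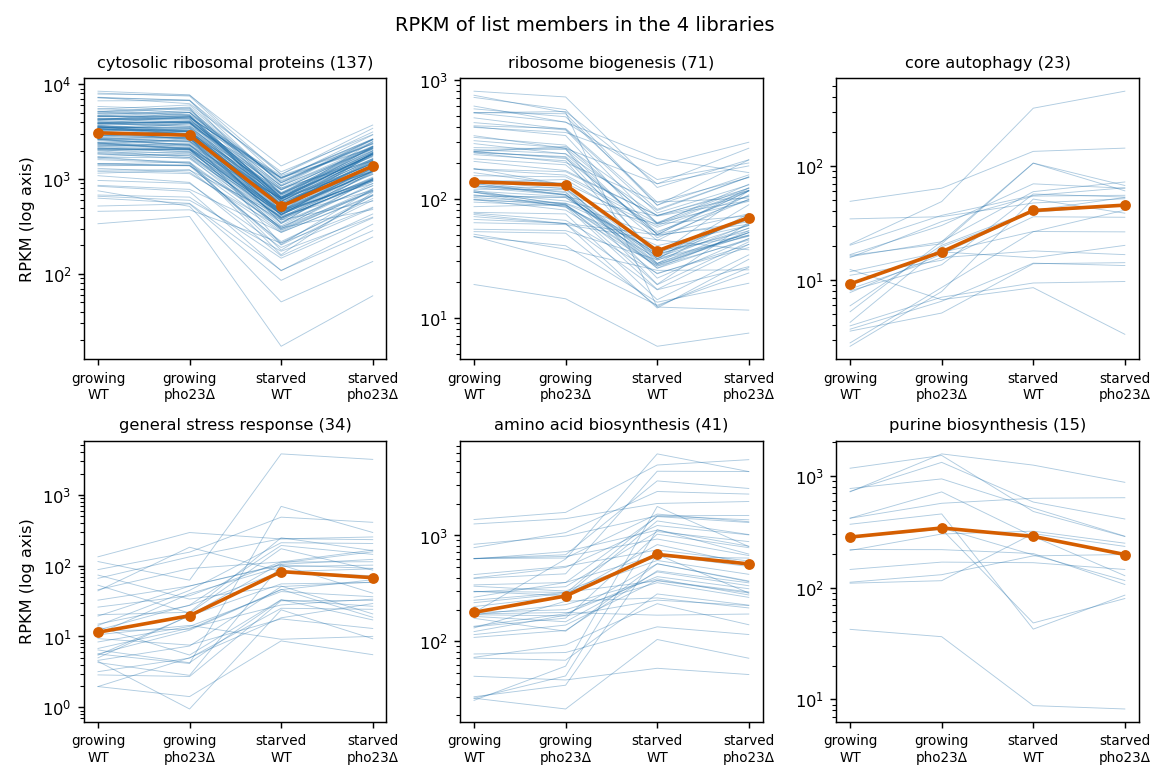
RPKM of every measured member of 6 gene lists in the 4 libraries, on logarithmic axes; thin lines are genes and the thick line joins the medians. Ribosomal protein and biogenesis medians separate only in the starved libraries (516 against 1374 RPKM for the 137 ribosomal protein genes). Autophagy and stress medians separate in the growing libraries (9.23 against 17.6 RPKM for the 23 core autophagy genes). After starvation they lie closer on this axis, at 40.7 against 45.4 RPKM for core autophagy and 82.5 against 67.7 RPKM for stress.

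Among genes switched on by starvation, stress-protection genes often had a smaller response that was set by a higher growing level in the deletion. Of 33 eligible general stress response genes, 12 were counted, all negative, against 5.45% of all genes, and 11 of the 12 were set by the growing value. Medians of the 34 measured members were 11.5, 19.7, 82.5 and 67.7 RPKM, and the median difference was -0.76. The count was 7 under median-of-ratios scaling and 15 under scaling to equal sums. TFS1, an inhibitor of a vacuolar carboxypeptidase, read 14.3, 44.8, 211 and 206 RPKM. GAD1, glutamate decarboxylase, read 5.45, 19.6, 55.3 and 57.8 RPKM, and MSC1 10.9, 40.2, 96.9 and 102 RPKM. In these genes the starved libraries were nearly equal, and the growing deletion was above growing wild type by 1.58 to 1.78 in log2. YGP1, a secreted cell wall-related glycoprotein, read 44.1, 182, 82.6 and 90.1 RPKM: the growing deletion was the highest of the 4 libraries, so that the transcript fell on starvation in the deletion only. SSA4, an inducible Hsp70 chaperone, differed from the rest by being set by the starved value, at 12.002, 12.7, 46.2 and 18.7 RPKM. Heat shock and chaperone genes as a list had 1 counted member of 20, a share near that of all genes: HSP78 (6.69, 18.1, 267 and 168 RPKM), a mitochondrial chaperone.

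FMP23 (chrII:331833-332360, plus strand), a mitochondrial protein of little-known function, had the most negative difference of the genes set by the growing value, -2.54 (-2.78 to -2.30, counting error only). It read 13.3, 76.2, 249 and 231 RPKM, rising in both strains to a common level from starting levels far apart. Its promoter window (chrII:331583-331882, plus strand) holds the stress response element AGGGG, the core bound by Msn2 and Msn4, shown in capitals 212 bases before the start codon.
FMP23: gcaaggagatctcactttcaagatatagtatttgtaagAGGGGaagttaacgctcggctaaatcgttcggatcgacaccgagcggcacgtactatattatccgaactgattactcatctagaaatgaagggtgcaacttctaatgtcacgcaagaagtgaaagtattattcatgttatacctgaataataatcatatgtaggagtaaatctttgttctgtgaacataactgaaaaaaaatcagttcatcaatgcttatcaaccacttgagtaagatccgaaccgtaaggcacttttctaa
AGGGG or its complement was found in 86 of 162 promoters (53.1%) of negative genes set by the growing value. It was in 26.7% of those set by the starved value, in 24.1% of those set by both, and in 21.7% of all promoters. Other genes of this kind included UGX2, of unknown function (2.72, 17.8, 158 and 152 RPKM), STF1, which encodes a regulator of the mitochondrial ATP synthase (76.6, 341, 512 and 532 RPKM), and GPC1, which acylates glycerophosphocholine (17.1, 123, 98.9 and 164 RPKM). Each had a growing deletion library well above growing wild type.

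Of 23 core autophagy genes, which build the autophagosome, 20 rose in wild type and 14 in the deletion. The upper quartile of all genes was likewise past 2-fold in wild type (1.26) and short of it in the deletion (0.91). All but 1 of the 23 had a difference below 0, where the median of all genes was itself below 0, at -0.15. Of the 22 eligible ones, 6 were counted (27.3%), all negative and all with a smaller rise, against 5.45% of all genes. Of these 6, 4 were set by the growing value, 1 by both and 1 by the starved value. The medians were 9.23, 17.6, 40.7 and 45.4 RPKM: the strains began apart and ended with the deletion no lower than wild type. The count was 4 under median-of-ratios scaling and with a pseudocount of 5, 8 with a pseudocount of 0.1 and 11 under scaling to equal sums.

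ATG7 (chrVIII:445713-447605, plus strand), the activating enzyme of both autophagy conjugation systems, had the largest difference of the list (-1.77) at 4.25, 19.5, 39.3 and 45.3 RPKM. ATG1 (chrVII:160065-162758, plus strand), the kinase that starts autophagy, read 2.62, 7.92, 51.3 and 38.6 RPKM, a difference of -1.70 (-1.91 to -1.50, counting error only). ATG29 and ATG31, parts of the scaffold that gathers Atg1, read 5.26, 21.8, 59.6 and 72.4 RPKM and 16.02, 21.7, 106 and 67.5 RPKM. ATG14 and ATG38, subunits of the lipid kinase complex of autophagy, read 5.94, 20.2, 40.7 and 53.02 RPKM and 16.4, 20.8, 106 and 60.6 RPKM. ATG7, ATG1, ATG29 and ATG14 were raised in the growing deletion, whereas ATG38 fell short of wild type after starvation, and ATG31 showed some of each.

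The other core genes were under 2-fold apart. ATG8 (chrII:80378-80731, minus strand), the ubiquitin-like protein that decorates the autophagosome membrane, read 20.6, 48.8, 322 and 453 RPKM, a difference of -0.71. ATG9, the membrane protein that seeds it, read 2.81, 8.59, 26.5 and 41.02 RPKM (-0.72). Both were higher in the deletion before and after starvation, and the wider gap was the one before it. ATG13, a regulator of Atg1, just missed the limit at -0.98, with 15.7, 32.5, 54.5 and 55.3 RPKM. ATG18 (-0.94), ATG22 (-0.94), ATG17 (-0.86), ATG4 (-0.86), ATG15 (-0.78), ATG16 (-0.74), VPS15 (-0.66) and ATG3 (-0.62) followed. VPS34 (-0.42), ATG2 (-0.40), ATG10 (-0.35), ATG5 (-0.28) and VPS30 (-0.20) were closer to the median of all genes. ATG12 was the exception at 0.06, with 34.4, 35.9, 47.4 and 51.7 RPKM, and ATG10 was the one core gene whose level was lower after starvation in both strains, by less than 2-fold, at 12.4, 6.71, 8.56 and 3.34 RPKM.

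Cargo receptors and vacuolar enzymes followed the same course. Of 15 eligible selective autophagy genes, 5 were counted (33.3%, against 5.45% of all genes), all negative and set by the growing value. They were ATG33, a mitophagy gene (31.1, 86.3, 326 and 253 RPKM), the receptor genes ATG34 (4.53, 12.2, 56.5 and 39.3 RPKM) and ATG19 (22.6, 52.3, 196 and 166 RPKM), the receptor of endoplasmic reticulum ATG40 (7.52, 23.4, 51.1 and 57.2 RPKM), and the peroxisome receptor ATG36 (-1.19). Of 14 vacuolar hydrolase genes, 5 were counted (35.7%, against the same 5.45%), again all negative and set by the growing value. RNY1, a vacuolar ribonuclease, read 7.04, 32.2, 109 and 121 RPKM, and ATH1, acid trehalase, 1.81, 8.399, 17.98 and 18.2 RPKM. ATG42, a vacuolar carboxypeptidase, read 21.04, 81.6, 222 and 281 RPKM, and APE1, an aminopeptidase that reaches the vacuole by the autophagy machinery, 19.4, 42.3, 459 and 409 RPKM. PEP4, the protease that activates the others, had a difference of -1.04. Being set by the growing value, all 10 of these genes were by definition higher in the growing deletion than in growing wild type. Over every measured member, the median genotype fold of each list in starved cells was close to 0 (-0.01 and 0.02 in log2).

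Of 41 amino acid biosynthesis genes, 28 rose in wild type and 23 in the deletion, beside upper quartiles of 1.26 and 0.91 over all genes. The difference was below 0 in 40 of the 41, where the median of all genes was itself below 0, at -0.15. Of the list, 7 were counted (17.1%), all negative, against 5.45% of all genes. Of these 7, 4 were set by both values, 2 by the growing value and 1 by the starved value. The medians were 188, 268, 663 and 538 RPKM, with a median difference of -0.54, and 4 genes were counted under median-of-ratios scaling. Arginine synthesis genes led the list. ARG3, ornithine carbamoyltransferase, read 27.8, 58.4, 1875 and 786 RPKM, and ARG1, argininosuccinate synthetase, 187, 599, 5885 and 4009 RPKM. ARG8 read 30.05, 38.6, 663 and 286 RPKM, and ARG56, the gene of a precursor of 2 enzymes of that pathway, 29.1, 47.2, 1136 and 668 RPKM. All 4 were above wild type in the growing deletion and below it in the starved one, and they kept a rise of 2.74 to 3.79 in log2 in the deletion.

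SNZ1 and SNO1 are a divergent pair of vitamin B6 synthesis genes, picked for their neighbourhood after values were seen. SNZ1 read 15.2, 17.97, 1545 and 431 RPKM and SNO1 9.13, 11.1, 458 and 113 RPKM: the growing libraries were close, and the starved deletion reached well under the level of starved wild type. The SNZ1 window (chrXIII:458158-458457, plus strand) is shown because it holds a site of Gcn4, the activator of amino acid synthesis genes, TGACTC, in capitals 179 bases before the start codon.
SNZ1: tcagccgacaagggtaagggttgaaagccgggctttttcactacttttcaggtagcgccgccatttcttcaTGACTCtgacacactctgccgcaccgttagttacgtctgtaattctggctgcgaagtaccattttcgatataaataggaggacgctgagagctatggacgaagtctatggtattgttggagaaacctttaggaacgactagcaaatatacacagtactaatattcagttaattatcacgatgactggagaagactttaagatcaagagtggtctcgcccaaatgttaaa
TGACTC or its complement was found in 18 of 86 promoters (20.9%) of negative genes set by the starved value and in 14 of 58 (24.1%) of those set by both. It was in 13.6% of those set by the growing value and in 7.99% of all promoters.

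Other weakened rises that were set in the starved cells belonged to several pathways. ICL1, isocitrate lyase of the glyoxylate cycle, read 16.7, 24.03, 149 and 54.05 RPKM, and POT1, the thiolase of fatty acid oxidation, 2.52, 3.7002, 55.8 and 25.9 RPKM. NDE2, a mitochondrial NADH dehydrogenase, read 0.8802, 1.33, 44.6 and 19.3 RPKM. It was the 1 counted gene of 39 in the TCA cycle and respiratory chain list (2.56%, against 5.45% of all genes). SNO4, HSP33 and HSP32 are near-identical genes whose reads cannot be assigned with certainty: they read 0.244, 0.119, 36.9 and 4.23 RPKM, 0.305, 0.119, 37.4 and 4.23 RPKM and 0.305, 0.119, 37.5 and 4.295 RPKM. FMP16, which encodes a mitochondrial protein and was set by both values, rose by 7.04 in wild type and by 4.74 in the deletion (log2), at 2.38, 6.73, 443 and 205 RPKM. In all of these the starved deletion was the lower of the starved libraries, and the growing levels of SNO4, HSP33 and HSP32 were under 1 RPKM.

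Targets of nitrogen catabolite repression, the genes for poor nitrogen sources, did not move as a list. Their medians were 13.5, 11.2, 368 and 317 RPKM, 4 of 27 were positive and 3 negative (14.8% and 11.1%, against 5.27% and 5.45% of all genes), and the median difference was -0.29. The rise was larger in the deletion for OPT2, an oligopeptide carrier (9.68, 7.58, 70.7 and 157 RPKM), and for DCG1 and DAL4 of the allantoin cluster (15.96, 2.82, 324 and 209 RPKM and 4.31, 1.28, 368 and 317 RPKM). DCG1 and DAL4 ended below wild type in the starved deletion, and it was the lower start that made their fold larger. UGA4, the GABA permease, ended lower (2.44, 0.318, 124 and 16.4 RPKM), and UGA1, GABA transaminase, started higher (33.4, 80.7, 381 and 391 RPKM). Both had smaller rises on the log2(RPKM + 1) scale. UGA4 started in the deletion below the 1 RPKM added, so that its smaller rise depends on the pseudocount. With a pseudocount of 0.1 the list had 5 positive and 2 negative genes. MEP3, an ammonium permease, read 39.7, 69.98, 52.5 and 26.6 RPKM and fell in the deletion only. CAR2, ornithine aminotransferase, read 25.3, 19.5, 12.8 and 30.9 RPKM and moved under 2-fold in both strains, down in wild type and up in the deletion.

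More purine synthesis genes fell in the deletion than in wild type. Of 15 genes, 6 were counted, all negative, against 5.45% of all genes: 4 fell in the deletion only, 1 fell more in it, and 1 moved under 2-fold in both. Medians were 284, 342, 288 and 198 RPKM, 4 of the 15 fell in wild type and 9 in the deletion, and the median difference was -0.84. Over all genes the lower quartile of the starvation fold was -0.26 in wild type and -0.29 in the deletion. The count was 3 under median-of-ratios scaling. MTD1, a folate enzyme that supplies the pathway with carbon units, read 419, 720.2, 288 and 128 RPKM, and SHM2, serine hydroxymethyltransferase, 721, 1577, 1251 and 877 RPKM. ADE17, the enzyme of the last steps to IMP, read 728, 1324, 584 and 412 RPKM, and ADE13, adenylosuccinate lyase, 1173, 1527, 481 and 287 RPKM. Growing levels were higher in the deletion and starved levels lower, in each of these 4 genes. ADE1 (-1.12) and ADE2 (-1.03), both further enzymes of the path, were set by the starved value.

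Larger responses, 29 in all, were 22 rises and 7 falls. AGA1 (chrXIV:703699-705876, plus strand), which anchors the a-agglutinin at the cell surface, read 317, 3.82, 1264 and 120.5 RPKM, and FUS1 (chrIII:71803-73341, plus strand), a membrane protein of cell fusion, 96.1, 2.38, 395 and 65.2 RPKM. Their differences of 2.67 and 2.26 were set by the growing value: both were lower in the deletion before and after starvation, by -6.05 and -3.38 in log2 for AGA1, and the gap narrowed on starvation. KAR4, a transcription factor of mating (219, 25.1, 530.1 and 132 RPKM), and PRM5 (117, 49.5, 423 and 363 RPKM) had the same form. MNC1 read 60.9, 14.1, 278 and 287 RPKM and started lower in the deletion but ended level, and YBR056C-B, which has no RefSeq record in the table used, had a similar difference (2.01). ACS1, acetyl-CoA synthetase, read 6.39, 6.01, 16.6 and 45.9 RPKM and had a larger rise set by the starved value. The metallothionein genes CUP1-1 and CUP1-2, near-identical copies picked after their values were seen, had the highest levels of the larger rises, at 458, 289, 5775 and 11964 RPKM and 618, 388, 8412 and 17049 RPKM, with reads that cannot be assigned between them. Among larger falls, HO, the mating-type endonuclease, read 56.6, 87.4, 9.95 and 3.79 RPKM, the cell wall protein gene TIP1 455, 172, 124 and 19.2 RPKM, and HXT4, a glucose carrier, 362, 217, 73.1 and 19.2 RPKM.

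Genes that passed 2-fold only in the deletion were 15 in the positive and 17 in the negative direction. DIA1 (chrXIII:904825-905835, plus strand), linked to invasive growth, had the highest difference of all, 2.96 (2.74 to 3.18, counting error only), at 52.95, 6.41, 84.02 and 89.7 RPKM. Only its growing deletion library stood apart, below the other three, and YMR316C-A, which overlaps it, read alike (2.35). MUP1 (chrVII:599417-601141, plus strand), the high-affinity methionine permease, read 47.5, 70.1, 41.3 and 227 RPKM, and only its starved deletion library stood apart, above the others. PIR1, a cell wall mannoprotein, read 451, 708, 272 and 1490.5 RPKM, and HSP150 of the same family 692, 534, 1095 and 1905 RPKM. CYS3, an enzyme of cysteine synthesis, read 131, 67.8, 85.6 and 138 RPKM and was set by both values. IME1, the master activator of meiosis, read 5.31, 6.63, 5.75 and 21.6 RPKM, and HBN1, the convergent neighbour of FUS1, 2.51, 2.74, 5.51 and 25.5 RPKM.

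Mating genes differed in both directions and from both ends. Of 25 pheromone response and fusion genes, 4 were positive and 4 negative (16% each, against 5.27% and 5.45% of all genes). The 4 positive genes had larger rises set by the growing value. The 4 negative ones rose in wild type, moved under 2-fold in the deletion and were set by the starved value. FUS2, needed for fusion, read 14.3, 2.01, 104 and 2.79 RPKM, and PRM6 17.2, 0.111, 109 and 0.3398 RPKM. FIG1 had a difference of -1.73 and PCL2, a cyclin, of -1.71 (30.3, 21.1, 63.2 and 12.9 RPKM). In FUS2 and PRM6 the deletion libraries were the lowest in both conditions, at 2.79 RPKM or less, so that little of the wild-type rise in RPKM was left. PRM6 rested on about 3.2 and 7.9 estimated reads in the growing and the starved deletion. Both levels were below the 1 RPKM added, so that the size of its fold there depends on the pseudocount. The medians of the list were 65.0, 20.8, 173 and 32.1 RPKM, and its median difference was -0.41. Among α-specific genes SAG1, the α-agglutinin, read 682, 31.2, 1057 and 151 RPKM and was positive (1.61), while MF(ALPHA)1, MF(ALPHA)2 and STE3 were under 2-fold apart (-0.92, 0.17 and 0.38). All 7 a-specific genes had a difference below 0, as did the median of all genes (-0.15). Of the 7, 3 were counted (42.9%, against 5.45% of all genes): AGA2 (1.497, 0.947, 129 and 17.3 RPKM), ASG7 (1.202, 2.54, 20.6 and 8.45 RPKM) and BAR1 (1.37, 0.426, 83.8 and 16.6 RPKM). These 3 rose in both strains from growing levels of at most 2.54 RPKM. The a-specific count was 2 with a pseudocount of 0.1 and 4 with a pseudocount of 5. These genes hold the mating-type markers themselves, and the part of a change in cell state was not tested.

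Reversed responses rested on few reads. YMR242W-A (chrXIII:754297-754386, plus strand), a reading frame of 90 bases, lies 76 bases from RPL20A, is transcribed away from it, and read 2.42, 8.49, 11.3 and 1.02 RPKM. It rose in wild type (1.85 in log2) and fell in the deletion (-2.23), a difference of -4.08 with a counting interval of -5.65 to -2.51, and the estimated reads were 5, 21, 20 and 2. No other gene was reversed at 2-fold in both strains. Folds of opposite sign, at any size, were found in 57 counted genes, 12 positive and 45 negative. HOP2 (chrVII:435625-436401, plus strand), a gene of meiotic recombination, had the second-lowest difference, -2.94 (-3.38 to -2.49), at 4.09, 11.7, 24.9 and 7.43 RPKM: it rose in wild type, and the small drop in the deletion was under 2-fold. Its neighbour AGA2, 168 bases away on the other strand, was also negative, and the next gene, RPL24A, positive (1.86). Whether the authors counted by strand is not given in the sources used here. Reads of such neighbours may be mixed.

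**Figure D4:**
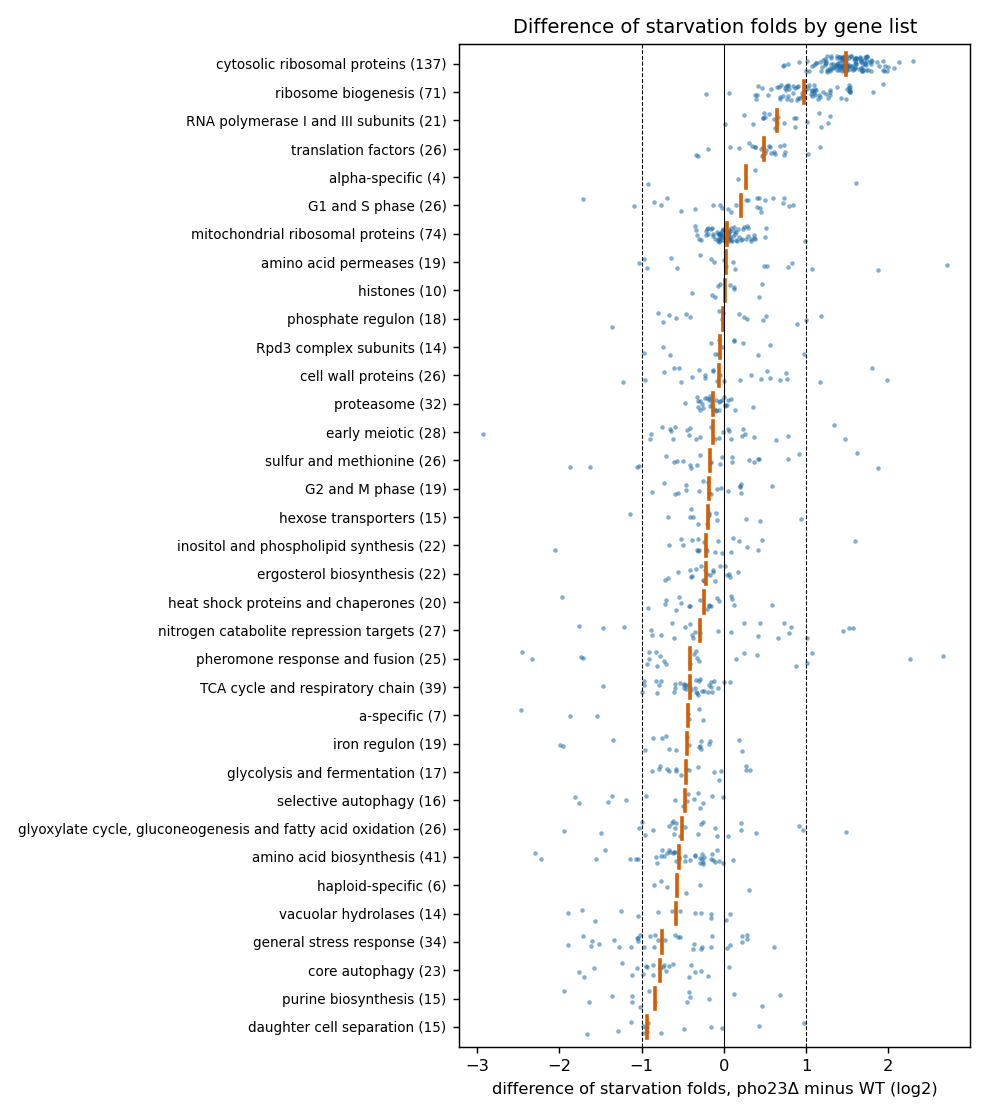
Difference of starvation folds (pho23 deletion minus wild type, log2) of every measured member of 35 gene lists, with the number of members in parentheses; vertical bars are list medians and dashed lines mark 2-fold. Cytosolic ribosomal proteins (median 1.49) and ribosome biogenesis (0.98) stand at the top, and daughter cell separation (-0.93), purine biosynthesis (-0.84), core autophagy (-0.78) and general stress response (-0.76) at the bottom.

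Several lists held few or no counted genes, beside 5.27% positive and 5.45% negative over all genes. No histone (10 genes), ergosterol (22), proteasome (32), glycolysis (17), haploid-specific (6), G2 and M phase (18 eligible) or Rpd3 complex gene (14, PHO23 at -0.97) was counted. The lower quartile of the starvation fold over all genes was -0.26 in wild type and -0.29 in the deletion. Of the 17 glycolysis genes 14 fell in wild type and 13 in the deletion. Their median log2 folds were -1.49 for wild type and -1.997 for the deletion strain. ADH1, alcohol dehydrogenase, read 4554, 4536, 503 and 274 RPKM (-0.87). Daughter cell separation genes had the lowest median of all lists, -0.93, with 1 of 15 falling in wild type and 7 in the deletion, and 3 were counted: DSE1 (126, 179, 232 and 103 RPKM), the glucanase gene SCW11 (116, 152, 97.3 and 51.7 RPKM) and the bud-site gene BUD9 (-1.13). ASH1, a repressor found in daughter cells, went the other way at 0.97. Iron genes had 2 of 16 counted, FIT2 and FIT3, cell wall proteins that hold iron carriers, at 10.5, 28.1, 33.6 and 20.9 RPKM and 10.2, 41.2, 32.7 and 31.6 RPKM. Sulfur genes were split, with MUP1 and CYS3 positive and STR3 (5.598, 33.1, 190.3 and 269 RPKM), MET6, methionine synthase (129, 450.04, 1937 and 2167 RPKM), and 2 more negative. In the phosphate list PHO5, acid phosphatase, read 62.4, 82.6, 47.8 and 24.02 RPKM, and PHO89 and VTC3 were positive (1.002 and 1.18). For 11 of the 35 lists the sign of the median depended on the scaling or pseudocount, and their medians as deposited were between -0.19 and 0.04.

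**Figure D5:**
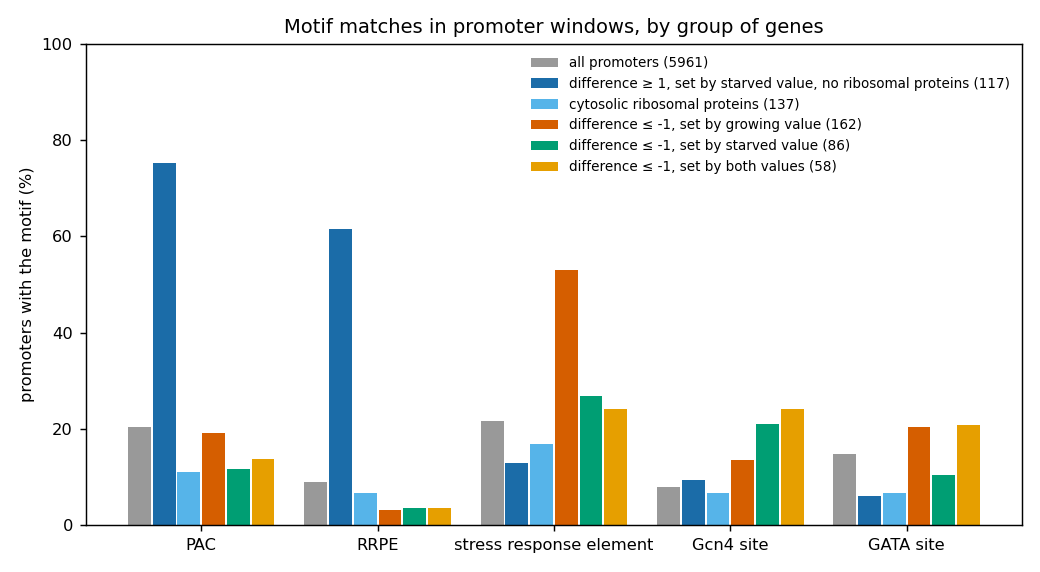
Share of promoters (percent) with a match to 5 short motifs, on either strand, by group of genes; bars are shares of the number of promoters given in the legend. PAC and RRPE reach 75.2% and 61.5% among the 117 positive genes set by the starved value outside the ribosomal protein list, and the stress response element 53.1% among the 162 negative genes set by the growing value.

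Other motifs were looked for in the same windows. The GATA site GATAAG, bound by regulators of nitrogen catabolite repression, was in 16 of 250 promoters (6.4%) of positive genes set by the starved value. It was in 20.4% of promoters of negative genes set by the growing value and in 14.7% of all. The core of the Ume6 site, AGCCGCC, was in 10 of 250 promoters (4%) of positive genes set by the starved value. Outside the ribosomal protein list it was in 7 of 117 of these (5.98%). It was in 5 of 162 promoters (3.09%) of negative genes set by the growing value, in none of 86 of those set by the starved value and in 2.18% of all. The pheromone response element TGAAACA was in 6.17%, 9.30% and 8.62% of promoters of negative genes set by the growing value, the starved value and both, against 7.55% of all. The positive and negative genes also differed in level and length: median growing wild-type RPKM was 502 for positive, 13.9 for negative and 35.7 for all genes, and median coding length 711, 963 and 1221 bases. Of 5544 pairs of adjacent eligible genes, 98 had both members counted, 32 pairs positive, 36 negative and 30 opposite. At the limit, PHO89 and GCD10 were just inside at 1.002 and 1.003, GRX4 just outside at 0.998, and on the negative side CIM1 and PTC6 just inside and BNA4 just outside at -1.002, -1.002 and -0.9996.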

How the data were processed

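Total RNA was sequenced for 4 libraries, 1 per group. Per the submitters' processing notes, CASAVA 1.8.2 and Bowtie2 2.1.0 were used with the sacCer3 (R64) genome. The values deposited by the authors are RPKM per open reading frame. No counting tool, annotation or strand setting is given in the sources used here. RefSeq names, positions and lengths for R64 matched 5997 of 6678 reading frames, and the other 681 keep the deposited name. Folds were computed on log2(RPKM + 1) as deposited, in genes that reached 10 RPKM in 1 library or more, with a fixed limit of 2-fold and no test. The kinds of change and the 66.7% and 33.3% limits of the starved share are given with the results. Reads were estimated from the step among low values (45.2%, 44.3%, 50.4% and 50.3% of them lay within 0.1 of a whole number, where chance gives 20%), so the 95% counting intervals are rough and cover counting error only.

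The 35 gene lists, the motifs and the genes described were chosen with earlier results of these data known. The rule for naming took the 15 highest and 15 lowest differences, the 5 largest of each kind and of each direction set by the growing value, up to 4 members of each list, every core autophagy gene and PHO23. Not every gene it names is described, and others that illustrate a list or a group are named beside them after their values were seen. ASP3-1 and ADE5,7 were not analysed here. List medians are over measured members and list counts over eligible ones. Promoter windows were read from the RefSeq R64 genome. Alternatives were pseudocounts of 0.1 and 5, no filter, a minimum of 30 RPKM, 3 scalings, and other limits of the starved share. The steps were tested on simulated data, in Python 3.11.15 with numpy 2.4.6 and pandas 2.3.3.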

Additional observations from a re-analysis of the deposited data

Results flagged for a closer look

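YMR242W-A stood out because its 2 starvation responses went in opposite directions, a rise in wild type and a fall in the deletion, with a difference of -4.08 in log2. With 1 library per group the difference was not tested. The estimated reads behind it were 5, 21, 20 and 2 in growing wild type, the growing deletion, starved wild type and the starved deletion, and it is a reading frame of 90 bases that lies 76 bases from RPL20A.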

How the results depend on the processing

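No paired analysis was possible because each group has 1 library, and for the same reason no replicate could be left out. The count of genes with a difference of -1 or less was 329 as deposited and 212 under median-of-ratios scaling. The same scaling took the responses that stayed under 2-fold in the deletion from 268 to 162. It also gave 35 positive genes set by the growing value and 36 set by both, and 63 negative genes set by the starved value and 37 set by both. Scaling to equal sums gave 164 negative genes set by the starved value and 128 set by both, and upper-quartile scaling gave 24 positive genes set by both. With a pseudocount of 5, 16 responses were larger in the deletion, and the growing value set 13 positive and 93 negative genes. With a minimum of 30 RPKM the count of reversed responses was 0. With limits of 3/4 and 1/4 for the starved share, 37 positive and 102 negative genes were set by both. Without the cytosolic ribosomal protein genes, a setting added after the data were seen, 185 genes were positive and 147 of them were set by the starved value. Under 2 other pseudocounts and 3 scalings, 98 to 108 of the 111 named counted genes stayed 2-fold apart. All 111 kept their sign, which says little, since they were chosen at 2-fold or more and the scalings shift differences by far less. Before a pseudocount is added, median-of-ratios, equal-sum and upper-quartile scaling shift every difference by 0.20, -0.15 and 0.10, and with it low genes moved by other amounts. Depth limits genes of few reads, such as YMR242W-A.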
